A study of Mus musculus with 2 samples.

Results

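The 10 tubulin genes described here are the alpha-tubulin genes Tuba1a, Tuba1b and Tuba4a, the beta-tubulin genes Tubb2a, Tubb2b, Tubb3, Tubb4a, Tubb4b and Tubb5, and the gamma-tubulin gene Tubg1. They were taken by symbol from the 55536 genes of the deposited tables, and all 10 were found and passed the minimum of a mean count of 10. Total RNA was sequenced, with synthetic ERCC spike-ins, from left cortex samples of 2 males of the B6CASTF1/J strain at 2 months, a first-generation hybrid of the C57BL/6J and CAST/EiJ strains. Both animals belong to 1 untreated group with 1 library each, called replicate 1 and replicate 2. The labels give the tissue as that of differently numbered males filed under 1 donor record, so the spread between the libraries is that between these samples only.

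Microtubules are hollow polymers of alpha- and beta-tubulin dimers, and in neurons they form the tracks of axons and dendrites. Gamma-tubulin is not part of the polymer wall and sits in a ring complex from which new microtubules grow. The alpha and beta genes encode closely related proteins, called isotypes, each with an acidic tail at the carboxyl end, where enzymes add or remove glutamate, glycine and tyrosine. Cells also tune tubulin messages to the amount of free tubulin, through a factor that recognises the first residues of the newly made chain.

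The ends of the coding sequences are shown for 8 of the members because they encode the tail that these enzymes act on. Each line gives the last 60 coding bases, 5′ to 3′ with the stop codon, from the GENCODE release M21 transcripts on build mm10, and capitals mark the glutamate codons GAA and GAG.
Tuba4a: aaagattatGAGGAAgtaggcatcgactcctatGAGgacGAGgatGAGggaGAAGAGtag
Tubb2a: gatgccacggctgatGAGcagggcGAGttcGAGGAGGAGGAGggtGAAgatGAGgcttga
Tubb2b: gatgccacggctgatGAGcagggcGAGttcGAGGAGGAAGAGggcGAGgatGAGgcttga
Tubb3: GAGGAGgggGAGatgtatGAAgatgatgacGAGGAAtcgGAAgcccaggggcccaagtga
Tubb4a: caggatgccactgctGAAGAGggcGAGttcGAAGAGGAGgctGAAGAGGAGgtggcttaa
Tubb4b: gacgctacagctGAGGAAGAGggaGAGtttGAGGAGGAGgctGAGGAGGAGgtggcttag
Tubb5: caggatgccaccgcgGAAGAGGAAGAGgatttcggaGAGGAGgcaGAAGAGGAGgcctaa
Tubg1: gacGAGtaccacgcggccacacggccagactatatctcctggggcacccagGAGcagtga

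Among the 19 codons before the stop, glutamate took 9 in Tubb4a and Tubb5, 10 in Tubb4b, 8 in Tubb2a and Tubb2b, 7 in Tuba4a and Tubb3, and 2 in Tubg1. Tuba4a ended in a glutamate codon, so its product is made without the final tyrosine that vasohibin carboxypeptidases remove from other alpha-tubulins and tubulin tyrosine ligase puts back. Tubb3 was the member whose last codon was for lysine, and the other beta members ended in alanine. The tails of Tubb2a and Tubb2b differed at 3 of the 60 bases, none of which changed a residue.

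The first 4 codons are shown for 1 gene of each class because they encode the residues that the autoregulation factor reads, with the last of the 4 in capitals.
Tuba4a: atgcgcgagTGC
Tubb2a: atgcgcgagATC
Tubg1: atgccgagaGAA
All 3 alpha members encoded methionine, arginine, glutamate and cysteine there, and all 6 beta members encoded methionine, arginine, glutamate and isoleucine. Tubg1 encoded methionine, proline, arginine and glutamate.

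Across whole proteins, the 3 alpha members were 95.3% to 99.6% identical and the 6 beta members 90.7% to 99.6%. Identity between an alpha and a beta member lay between 39.2% and 41.4%, and Tubg1 was 30.9% to 33.3% identical to the others. Tuba1a and Tuba1b differed at 2 of 451 residues, G232S and T340S, with the Tuba1a residue first and positions counted from the initial methionine. Tubb2a and Tubb2b differed at 2 of 445 residues, A55T and S201C, with the Tubb2a residue first. Over the coding bases these pairs differed at 23 of 1356 and 47 of 1338 positions.

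Levels are in TPM, the deposited transcript abundance per length, scaled to a sum of 1000000 in each library. Tuba1a (ENSMUSG00000072235.6, chr15:98949837-98953703, minus strand), the alpha isotype best known from growing neurons, had the highest mean, with 398 TPM in replicate 1 and 361 in replicate 2. Tuba4a (ENSMUSG00000026202.13, chr1:75214228-75219865, minus strand), linked to inherited motor neuron disease, had 285 and 272 TPM. Tuba1b (ENSMUSG00000023004.8, chr15:98931425-98934565, minus strand), an alpha isotype made in most cell types, had 245 and 243 TPM. Among the alpha genes the order was therefore Tuba1a, Tuba4a and Tuba1b in both animals, with no overlap between their ranges.

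Tubb2a (ENSMUSG00000058672.7, chr13:34074274-34078007, minus strand), a beta isotype abundant in neurons, had 378 TPM in replicate 1 and 342 in replicate 2. Tubb4a (ENSMUSG00000062591.5, chr17:57080066-57087782, minus strand), the isotype mutated in a leukodystrophy with loss of myelin, had 277 and 258 TPM. Tubb5 (ENSMUSG00000001525.10, chr17:35833921-35838306, minus strand), a beta isotype made in most dividing and resting cells, had 203 and 191 TPM. These were the highest of the 6 beta genes, and their ranges did not overlap.

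Tubb3 (ENSMUSG00000062380.4, chr8:123411424-123422015, plus strand), the isotype whose antibody is the usual marker of neurons, had 187 TPM in replicate 1 and 165 in replicate 2. Tubb4b (ENSMUSG00000036752.4, chr2:25222160-25224702, minus strand), a widely made isotype that is also found in cilia, had 158 and 145 TPM. Tubb2b (ENSMUSG00000045136.6, chr13:34126748-34130466, minus strand), the near twin of Tubb2a and known for cortical malformations when mutated, had 74.1 and 67.7 TPM. Tubb2a and Tubb2b lie beside each other on chromosome 13, and Tubb2a was 5.08 ± 0.0337 (SD, n = 2) times higher. Tubg1 (ENSMUSG00000035198.9, chr11:101119938-101126419, plus strand) was lowest, at 21.3 and 19.9 TPM.

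Of the 10 members, 8 reached 100 TPM in both libraries, against 902 of 22028 protein-coding genes (4.09%). Tubb2b and Tubg1 did not. By TPM among protein-coding genes, Tuba1a ranked 101 in replicate 1 and 111 in replicate 2, and Tubg1 ranked 5331 and 5575.

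The second deposited quantification, made directly from the reads and here called the other quantification, gave a different leading gene. There Tuba4a was highest, with 655 and 667 TPM, ahead of Tuba1a with 570 and 521. Its TPM values are not on the same footing as the main ones, because protein-coding genes held 49.4% and 48.1% of TPM in the main tables and 80.3% and 80.4% in the other. Rescaled to a sum of 1000000 over protein-coding genes, the 10 members together had 4400 ± 148 TPM in the main quantification and 4420 ± 166 in the other (SD, n = 2).

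**Figure D1:**
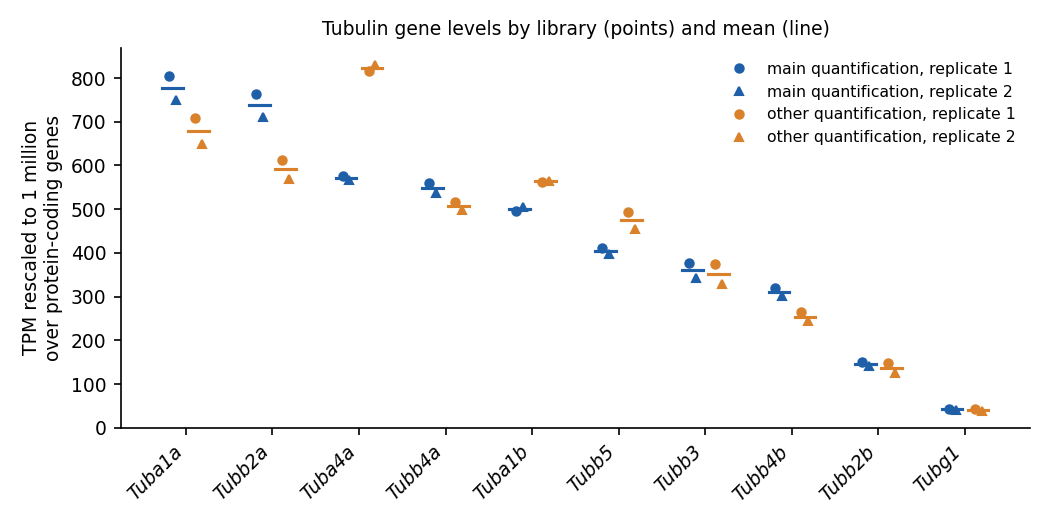
Level of each tubulin gene in TPM rescaled to 1000000 over protein-coding genes, on a linear axis, with circles for replicate 1, triangles for replicate 2 and lines for their mean. Tuba4a stands apart in the other quantification (orange), while Tubb4b, Tubb2b and Tubg1 are lowest in both.

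Of the 45 pairs of members, 40 kept their order, with ranges that did not overlap, in both quantifications. The 5 pairs with no settled order were Tuba1a with Tuba4a, Tuba1a with Tubb2a, Tuba4a with Tubb2a, Tuba4a with Tubb4a, and Tuba1b with Tubb4a. Tuba4a takes part in 3 of them. Below the leading 5 genes, the order Tubb5, Tubb3, Tubb4b, Tubb2b and Tubg1 held in both animals and both quantifications. Over protein-coding transcripts of the main quantification only, Tubb5 had 191 and 178 TPM and Tubb3 187 and 165. Their ranges then overlapped, with Tubb5 the higher in each animal.

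Summed over genes, the 3 alpha members reached 902 ± 36.6 TPM and the 6 beta members 1223 ± 76.2 TPM (SD, n = 2). The ratio of alpha to beta was 0.727 in replicate 1 and 0.750 in replicate 2, a mean of 0.738 ± 0.0161. The other quantification gave 0.893 ± 0.0375, so the alpha sum was below the beta sum in both, by an amount that depended on the quantification. Dividing its counts by the effective lengths of the main table gave 0.829 ± 0.0128.

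Within the alpha sum, Tuba1a held 42.0% ± 1.21, Tuba4a 30.9% ± 0.243 and Tuba1b 27.1% ± 0.965 (SD, n = 2). Within the beta sum, Tubb2a held 29.4% ± 0.238, Tubb4a 21.9% ± 0.265 and Tubb5 16.1% ± 0.329. Tubb3 held 14.4% ± 0.373 of it, Tubb4b 12.4% ± 0.0251 and Tubb2b 5.79% ± 0.00834. The beta sum was thus spread over several isotypes, and the neuron marker Tubb3 came after Tubb2a, Tubb4a and Tubb5.

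**Figure D2:**
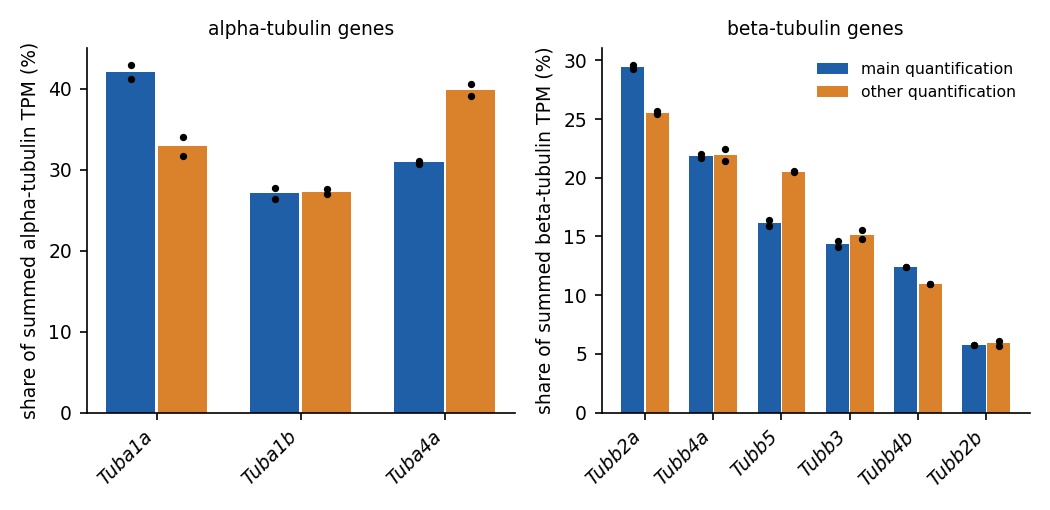
Share of each gene in the summed alpha-tubulin TPM (left) and beta-tubulin TPM (right) in percent, with bars for the mean of the 2 libraries, dots for each library and colours for the quantification. The 6 beta genes stand in the same order in both colours, and the alpha share of Tuba4a is 30.9% in the main quantification and 39.8% in the other.

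The other 10 tubulin genes of the mouse were low in this tissue, and the 10 members held 97.2% ± 0.0157 (SD, n = 2) of the TPM of all 20. Tuba1c, a close copy of Tuba1b, had 28.2 TPM in replicate 1 and 24.8 in replicate 2. Tubg2, the second gamma-tubulin gene, had 25.3 and 22.7 TPM, which was 1.16 ± 0.0343 times Tubg1. Messages of both gamma genes were thus present at similar levels.

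Tuba8, an alpha gene best known from muscle and testis, had 5.60 and 5.41 TPM. The delta gene Tubd1 and the epsilon gene Tube1, which serve centrioles, had 2.64 and 2.99 TPM, and 1.09 and 1.55 TPM. Tubb6 had 0.47 and 0.88 TPM. Tubb1, the platelet isotype, had a single count in replicate 1 and 0 in replicate 2, and Tuba3a, Tuba3b and Tubal3 were listed at 0 in both, where a count of 0 allows up to 0.0909 and 0.0933 CPM. The other quantification gave Tubal3 5.29 and 10.3 estimated counts, which is above that limit.

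Genes that fold tubulin, modify it or anchor gamma-tubulin are given for context. All 8 genes of folding and autoregulation were above 1 TPM in both libraries. The cofactors Tbcb, which acts on alpha-tubulin, and Tbca, which acts on beta-tubulin, led with 58.2 ± 0.926 and 54.3 ± 1.47 TPM (SD, n = 2). Over protein-coding transcripts only, Tbcb had 26.2 ± 0.0778 TPM and Tbca 53.6 ± 1.47. The small GTPase Arl2, of the same list, followed with 35.2 ± 3.48 TPM.

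Of 30 modification genes, 21 reached 1 TPM in both animals, where 12934 of all 22028 protein-coding genes did. Agtpbp1, a carboxypeptidase that trims glutamate chains from tubulin tails, led with 160 ± 3.61 TPM (SD, n = 2). Ttll7, a ligase that adds glutamate chiefly to beta-tubulin, had 80.9 ± 0.651 TPM, and Nicn1, a subunit of the polyglutamylase complex, had 57.7 ± 0.431 TPM. All 11 genes of the gamma-tubulin ring complex and its anchors were at 1 TPM or more. The anchor Akap9 had 39.8 ± 2.64 TPM, and the small subunits Mzt1 and Mzt2 had 29.8 ± 0.325 and 25.2 ± 1.77 TPM, beside 20.6 ± 0.983 for Tubg1.

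Cell markers were also read, though those of neurons cannot tell cortex from other brain regions. All 8 neuron markers were present and summed to 3987 TPM in replicate 1 and 3933 in replicate 2. Striatal markers were present too, with sums of 366 and 208 TPM. Immature neuron markers summed to 19.2 and 19.3 TPM, with Dcx at 11.6 and 12.6 TPM and none of Igfbpl1, Draxin, Nhlh1 and Eomes above 0.23 TPM. Of these 6 markers, 2 reached 1 TPM in both libraries, Dcx and Sox11, the latter with 1256 and 1118 counts. Tubulin levels are those of bulk tissue, in which fewer cells of a type and less RNA per cell cannot be told apart.

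Transcript forms were read as the share of each annotated transcript in its gene's TPM. The 10 members have 25 annotated transcripts, and 3 of them have 1 each. All 10 had the same leading form in both quantifications, and in 9 of them it held 90% or more in both libraries of the main quantification. In the other quantification this was true of 7.

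Tuba4a was the exception in the main tables. Its leading form Tuba4a-201 held 81.3% in replicate 1 and 87.3% in replicate 2. Its shares were 39.9% and 41.5% in the other quantification. The shorter form Tuba4a-206, whose coding start is not annotated, held 11.0% and 3.02%, and 27.6% and 21.1% in the other. Its main shares rested on 757 and 194 counts, with a deposited SD for uncertain read assignment of 121 and 90.9 counts. Tuba4a-203, whose coding end is not annotated, held 0.628% and 0.874%, and 30.5% and 26.7% in the other.

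In the other quantification the short forms took larger shares of TPM than of counts. Tuba4a-203, 782 bases long, took 12.2% and 11.3% of the gene's counts there. The gene's own counts differed less between the quantifications than its TPM, at 11357 and 10892 in the main and 12230 and 11929 in the other. With the other counts over the main effective lengths, Tuba1a came first in both animals, and Tuba4a had no settled order with Tubb2a and Tuba1b, whose ranges overlapped its own.

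Tubb5 showed the same contrast at a smaller size. Its leading form Tubb5-201 held 93.6% and 91.9%, and 58.4% and 60.2% in the other quantification. The rest was nearly all Tubb5-204, a retained-intron form of 979 bases, at 5.58% and 6.56%, and 41.0% and 38.6% in the other. Total RNA also holds unspliced transcripts, and their part in this form was not tested.

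In Tubb2b, the form Tubb2b-201 held 98.4% and 98.9%, and 72.0% and 84.2% in the other quantification, where the 430-base form Tubb2b-202 held 28.0% and 15.8%. That share rested on 68.3 and 33.3 estimated counts. Tubb3-201 held 100% and 99.6%, and 91.8% and 93.2% in the other. Tuba1a, Tubb2a and Tubb4a have no second form, and Tuba1b-201, Tubb4b-201 and Tubg1-201 held 94.4% or more in both libraries and both quantifications.

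**Figure D3:**
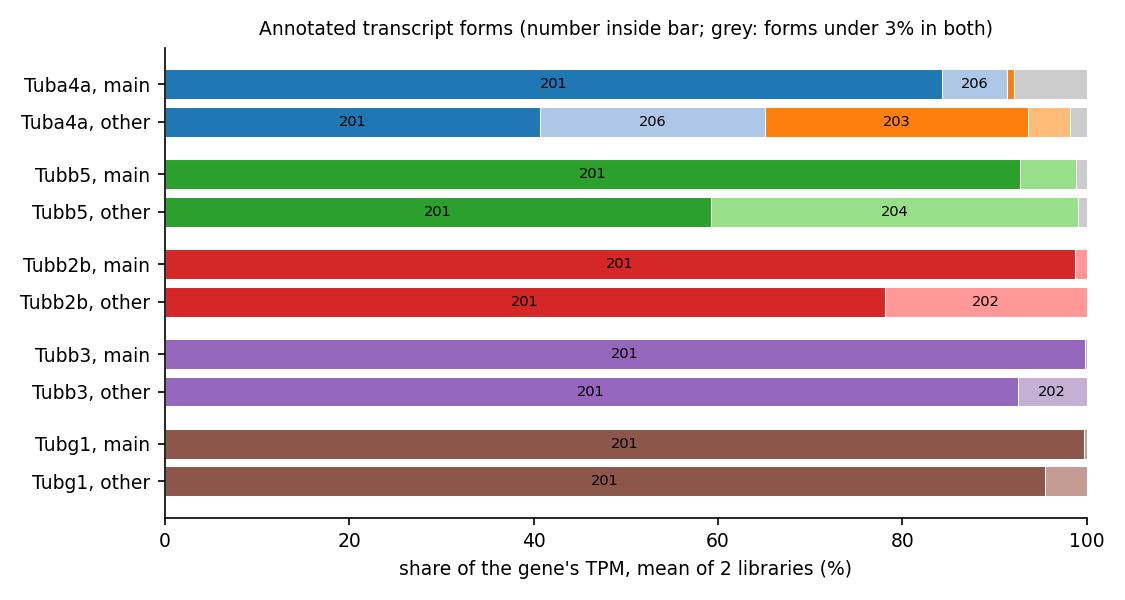
Share of each annotated transcript form in its gene's TPM, mean of the 2 libraries in percent, for 5 tubulin genes in the main and the other quantification. The leading form 201 is shorter as a bar in the other quantification for all 5 genes, most of all for Tuba4a and Tubb5.

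Because the proteins are so alike, reads of different tubulin genes can be hard to tell apart. To measure this, each transcript was cut into overlapping words of 31 bases, and words that also occur in a transcript of another gene were counted. The shared part was 77.0% for Tuba1a and 75.4% for Tuba1b, 64.6% for Tubb4b, 56.4% for Tubb2a and 45.9% for Tubb2b. It was 24.2% for Tubg1, mostly with Tubg2, and at most 4.43% for Tuba4a, Tubb3, Tubb4a and Tubb5.

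In most members the shared words lay in the coding part, but Tubb5 shared 3.60% of its coding words and 5.50% of its untranslated words. For Tuba1b, 97.2% of coding words but 0.612% of untranslated words were shared, and for Tubb2a and Tubb4b the values were 68.1% and 77.4% of coding words and 0% of untranslated words. Tuba1a had 95.6% and 17.6%. Most words found in only 1 gene thus lay in the untranslated ends of Tuba1a and Tuba1b. Exact windows of 100 bases were shared at 65.1% in Tuba1a, 69.5% in Tuba1b, 36.9% in Tubb2a, 29.2% in Tubb4b and 27.7% in Tubb2b, and at 0% in Tuba4a, Tubb3, Tubb4a and Tubb5.

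**Figure D4:**
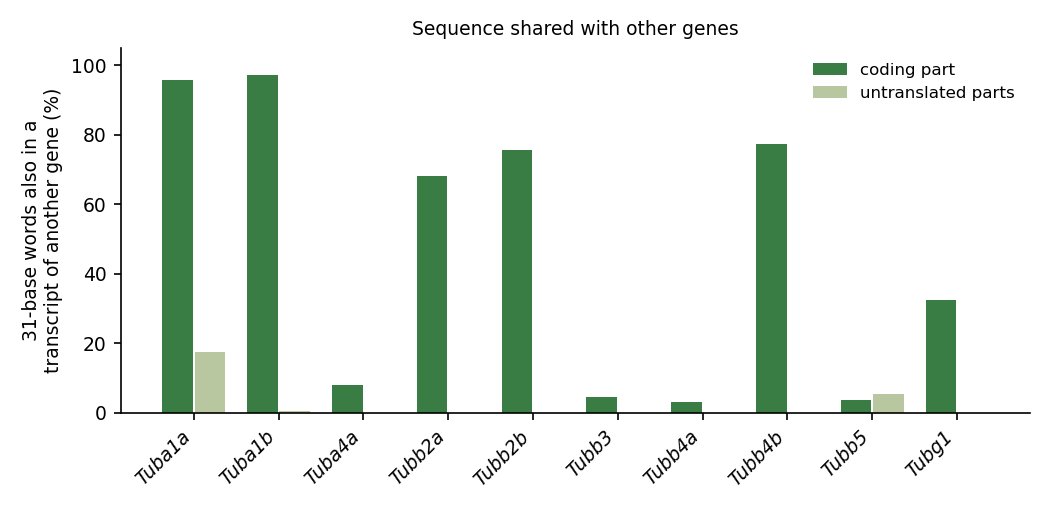
Share of each gene's 31-base words that also occur in a transcript of another gene, in percent, for the coding part (dark) and the untranslated parts (light). The words are those of the gene's main transcript, except for Tuba4a, where the minor form Tuba4a-202 was used. Tuba1a, Tuba1b, Tubb2a, Tubb2b and Tubb4b share 68.1% or more of coding words, and Tuba1a is the only member above 10% in the untranslated parts.

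The deposited posterior SD is the authors' measure of how uncertain the read assignment is. Taken as a percent of the count, it did not follow the share of shared words closely. It was 1.03% and 0.963% of the count in Tuba1b, 1.02% and 1.05% in Tubb2b, 0.610% and 0.685% in Tubg1 and 0.481% and 0.507% in Tuba1a. It was lower in Tubb2a, at 0.273% and 0.284%, and in Tubb4b, at 0.220% and 0.244%, although both share more words than Tubg1. In Tuba4a and Tubb5 it was 0. In all 10 members it was no larger than the counting error, the square root of the count.

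The quantifications differed by more than that. Gm14150, a processed pseudogene on chromosome 2 with 72.4% of its words in Tuba1b, was chosen after its values were seen. It had 3446 and 2947 counts, or 126 and 110 TPM, in the main table, and 46.8 and 30.3 estimated counts in the other. Tuba1b had 8713 and 8511 counts in the main table and 10727 and 10688 in the other. The sum of the pair was 12159 and 11457 in the main table and 10774 and 10719 in the other, so the added counts of Tuba1b were fewer than those missing from Gm14150. Whether reads moved between them was not tested.

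A second such pseudogene, Gm3226 on chromosome 13 with 74.5% of its words in Tuba1b and 68.7% in Tuba1a, was also chosen after its values were seen. It had 2334 and 1995 counts in the main table and 2155 and 1914 in the other. Together the 2 pseudogenes took 19.0% and 17.9% of the counts of Tuba1a, Tuba1b, Tuba1c and themselves in the main table, and 7.78% and 7.44% in the other. The levels of Tuba1a and Tuba1b are therefore uncertain, since reads may be assigned to them or to these copies. The ratio of Tuba1a to Tuba1b was 1.56 ± 0.10 in the main quantification and 1.20 ± 0.0812 in the other (SD, n = 2), and it was above 1 in both animals in each.

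For the beta genes the copies weighed less in the main table. Tubb4b-ps1, a pseudogene with 65.4% of its words in Tubb4b, had 310 and 300 counts beside 5139 and 4628 for Tubb4b itself. Tubb2a-ps2 had 22.8 and 27.6 counts beside 12426 and 11040 for Tubb2a. In TPM, Tubb4b-ps1 had 11.5 and 11.35 in the main table. The other quantification gave it 25.6 and 26.4 TPM, beside 212 and 196 for Tubb4b. Tubb2a-ps2 had 7.64 and 8.89 TPM there, beside 492 and 458 for Tubb2a. Whether mismatches between the CAST/EiJ copy and the C57BL/6J reference moved reads between these genes was not tested.

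The 2 animals are the only replicates, so their difference has no replicate check and no p-value. It is given as the log2 ratio of replicate 2 over replicate 1 from normalised counts, with an interval that covers counting error only. All 10 members were lower in replicate 2, by at most 1.13-fold, while with spike-in scaling all 10 were higher. For 7 members the interval excluded 0 on the lower side, where 11.6% of all 18490 genes measured had one, and none was higher, against 11.0% of all genes.

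The intervals of the members are narrow because their counts are high, so deep genes are the better background. Among the 6738 genes with at least the mean count of Tubg1, 21.3% were lower and 14.4% higher beyond counting error. Tubg1 has the lowest count of the members, so this background was not matched to the depth of the others. No member differed 2-fold, where 1.80% of all genes did. The median log2 ratio was -0.11 over the 10 members, 0.00035 over all genes and -0.017 over the deep genes.

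All 6 beta members lay below 0 beyond counting error, except that Tubb2b, at -0.064, was within it in the other quantification. Tubb3 had the lowest ratio, at -0.18 (95% interval -0.23 to -0.13) with 7190 and 6213 counts, or 1.13-fold higher in replicate 1. Tubb2a stood at -0.14 (-0.18 to -0.10), and Tubb2b and Tubb4b each at -0.12. Tubb5 and Tubb4a had -0.099, a 1.07-fold difference. With spike-in scaling these 6 ratios turned positive, between 0.14 and 0.22.

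The alpha members differed among themselves. Tuba1a had -0.14 (-0.17 to -0.10), while Tuba4a had -0.029 (-0.067 to 0.0086) and Tuba1b -0.0030 (-0.046 to 0.040), both within counting error. With spike-in scaling the 3 ratios were 0.18, 0.29 and 0.32. Tubg1, at -0.099 (-0.25 to 0.048) and 0.22 with spike-in scaling, was also within counting error before that scaling. All 10 values lay inside the band from -0.20 to 0.21 that holds the central 95% of the deep genes.

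**Figure D5:**
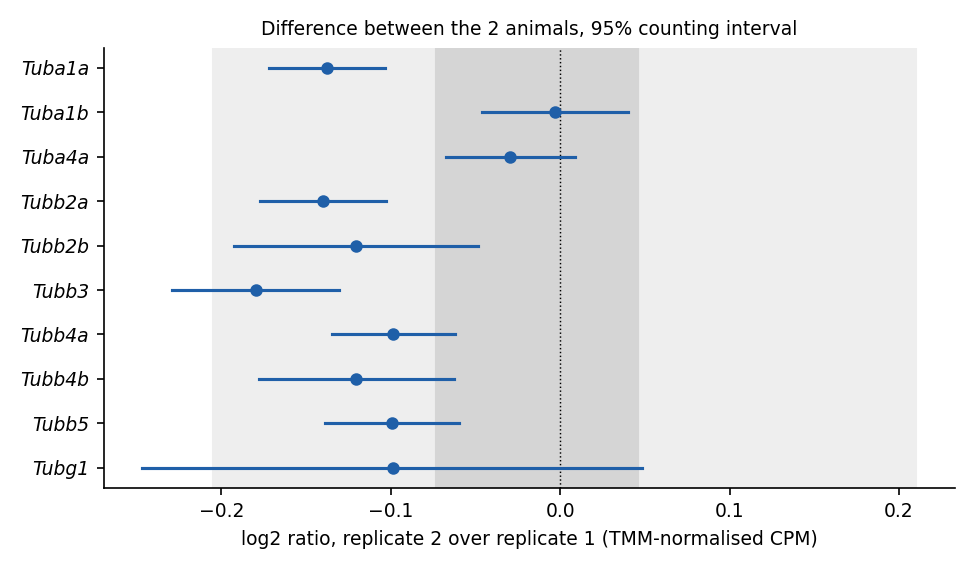
Log2 ratio of replicate 2 over replicate 1 for each tubulin gene (points) with its 95% counting interval (lines). Light grey holds the central 95% of genes with at least the mean count of Tubg1, the lowest member, from -0.20 to 0.21. Dark grey runs from their lower to their upper quartile. All 10 points lie left of 0 and inside the light band, and with spike-in scaling all 10 lie right of 0.

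Spike-ins took 0.428% of the counts in replicate 1 and 0.345% in replicate 2, and scaling to them moves the median of all genes to 0.32. All 10 members were then higher beyond counting error, as were 65.8% of all genes and 97.7% of the deep genes. Relative to that median, 9 of the 10 members were lower, with a median of 0.21. The scaling shifts all log2 ratios by nearly the same amount, so the distance between members and all genes was fixed in advance. The members' median therefore lay about 0.11 below that of all genes on both scalings, which is no separate support.

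Markers of some other cells moved between the same animals. Of the 10 markers of mature oligodendrocytes, 9 were lower in replicate 2, with a median log2 ratio of -0.26 and sums of 883 and 717 TPM, while spike-in scaling put 9 of them higher, with a median of 0.057. All 10 striatal markers were lower on both scalings, with sums of 366 and 208 TPM and medians of -1.01 and -0.70. Of the 8 neuron markers, 6 were lower, with a median of -0.046, and with spike-in scaling all 8 were higher, with a median of 0.27. Ttr, the choroid plexus marker, had 8.58 and 89.2 TPM. It was the extreme of its list, in which all 5 measured markers were higher but only Ttr and Kl, at 0.28, beyond counting error. Medians were nearer to 0 for astrocytes (-0.040), oligodendrocyte precursors (-0.019), microglia (-0.063) and endothelium and mural cells (0.013). With spike-in scaling these 4 medians were 0.28, 0.30, 0.26 and 0.33. Of the 6 immature neuron markers 3 were measured, 2 of them lower, with a median of -0.14, and 0.18 with spike-in scaling. Before that scaling, Dcx was higher, at 0.23 (0.12 to 0.34), and Sox11 lower, at -0.14 (-0.25 to -0.020), both beyond counting error. The part of these cells in the tubulin difference was not tested.

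The related lists had medians nearer to 0 than the members before spike-in scaling and farther from 0 with it, at 0.30 for folding, 0.31 for modification and 0.35 for the ring complex. Before spike-in scaling, of 8 folding genes 1 was lower and 1 higher beyond counting error, with a median of -0.021. The higher one was Tbce, a cofactor that acts on alpha-tubulin, at 0.23 (0.080 to 0.39), and the lower one was Arl2 at -0.16 (-0.30 to -0.017). Most of the Tbce level lay outside its protein-coding transcripts. The gene had 29.4 and 37.6 TPM in replicates 1 and 2, and its protein-coding transcripts had 5.52 and 4.77, which was not higher in replicate 2. Of 26 measured modification genes 4 were lower and 1 higher, with a median of -0.0047, and the widest ratio was that of Ttll9, 0.64 with 13 and 21 counts and within counting error. Of 11 ring complex genes 1 was lower and 2 higher, with a median of 0.032, and Mzt2 stood lowest at -0.24 (-0.45 to -0.042). Among the other tubulin genes, Tuba1c had -0.19 (-0.31 to -0.066) and Tubg2 -0.15 (-0.29 to -0.014), and Tuba8, Tubb6, Tubd1 and Tube1 were within counting error. The Tuba1c interval leaves out uncertain read assignment, whose posterior SD was 5.04% and 5.54% of its count. Its 1158 and 994 counts became 1156 and 663 in the other quantification. With spike-in scaling, Tuba1c, Tubg2, Tbce and Arl2 were all higher in replicate 2, at 0.13, 0.17, 0.55 and 0.16, and Mzt2, at 0.074, was within counting error.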

How the data were processed

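Total RNA-seq of 2 cortex libraries was used as deposited by the authors. The deposited expected counts and TPM of genes and transcripts, and the deposited percent share of each transcript in its gene, come from reads aligned to transcripts (mm10, GENCODE M21), per the file headers and the notes beside them. The other quantification holds the authors' estimated counts and TPM made directly from 1 sequence file of each library. The programs, and whether that file held all reads, are things not given in the sources used here. Transcript shares were recomputed from TPM.

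Depth was 33007629 and 32142918 expected counts in replicates 1 and 2, and 33424292 and 33464140 estimated counts in the other quantification. Of the table's rows, 26248 name no gene (1.78e-05% and 2.48e-05% of counts) and 97 are spike-ins; both were left out of the comparison. A chi-square of 6.42 per degree of freedom over genes shows 2 distinct libraries, with a coefficient of variation of 0.0628 between them (edgeR common dispersion).

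Expected counts were rounded, a minimum mean count of 10 was set per gene, and log2 ratios taken from TMM-normalised CPM (prior count 2, edgeR 4.0.16, R 4.3.3). Intervals are exact 95% Clopper-Pearson intervals, and the floor for a count of 0 is 3 counts. Both cover counting error only, since reads are not independent molecules. The smallest p of an exact two-sided sign test with 2 animals is 0.5, so no test was run. The script was tested on simulated data. Sequence comparisons used the GENCODE M21 transcripts and Biopython 1.88. The sequence of Tuba4a is that of Tuba4a-202, because the coding start of Tuba4a-201 is not annotated. Tuba4a-202 is a minor form, at 2.49% and 2.63% of the gene's TPM in the main quantification and 0.886% and 0.889% in the other. Some coding ends are not reported here.

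Named were all 10 members, the other tubulin genes, the 3 most abundant and the most different gene of each related list, and transcripts at 10% or more of a gene. The members and lists were chosen with earlier results of these data known. Alternatives were the size factors of DESeq2 1.42.0, scaling to the spike-ins, log2 TPM (pseudocount 1 or 0.1), a smaller prior count (0.5), other count minimums, intervals widened by the posterior SD, the other quantification, other scalings of TPM, and leaving out each animal.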

Additional observations from a re-analysis of the deposited data

How the results depend on the processing

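The alpha and beta sums of 902 and 1223 TPM became 1660 and 1860 in the other quantification, 1850 and 2508 when rescaled over protein-coding genes, 2065 and 2315 for the other quantification rescaled likewise, and 1912 and 2305 with its counts over the main effective lengths. The last 2 were chosen after seeing the data. Their ratio was 0.893, 0.738, 0.893 and 0.829. Leaving out either animal gave 876 to 928 TPM for alpha, 1169 to 1277 for beta and 0.727 to 0.750 for the ratio. Coding transcripts alone moved neither the sums nor the ratio by more than the spread. Of the single genes, they moved Tubb5 from 197 to 184 TPM and Tuba1b from 244 to 242, by more than the spread. Spike-in scaling reversed the difference between the animals: the median became 0.21, 0 members were lower and 10 higher beyond counting error (65.8% of all genes were higher), and the log2 ratios were 0.18 for Tuba1a, 0.32 for Tuba1b, 0.29 for Tuba4a, 0.18 for Tubb2a, 0.20 for Tubb2b and Tubb4b, 0.14 for Tubb3, and 0.22 for Tubb4a, Tubb5 and Tubg1. With a mean count of at least 100, Tuba1b stood at 0.0085. In the other quantification Tuba4a (-0.063) passed counting error and Tubb2b (-0.064) no longer did. Of the 70 ratios under alternatives that give an interval, 57 kept direction and call, and the 20 from TPM, which have none, kept their direction. The 57 include the 10 with the smaller prior count, whose intervals could not change because the prior does not enter them. The ratios need both animals, so neither could be left out there. No paired analysis was possible because there is 1 group. With 790 and 722 counts, Tubg1 was the member whose interval was widest.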

Other observations

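Cdk5rap2, an anchor protein of the gamma-tubulin ring complex, was chosen after its values were seen, because its level depended on the quantification more than that of any tubulin member. It had 4.51 TPM in replicate 1 and 4.72 in replicate 2 in the main table, from 491 and 550 counts. The other quantification gave 120 and 91.6 TPM, from 1262 and 1190 estimated counts. The cause was not tested.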
